A study of Mus musculus with 12 samples.

Results

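The genes described here are 9 genes of costimulatory and checkpoint molecules that antigen-presenting cells show to T cells: Cd80, Cd86, Cd40, Cd274, Pdcd1lg2, Icosl, Cd276, Vsir and Lgals9. They were chosen by gene symbol from the deposited count table, and all 9 were among its 17723 genes and among the 16306 genes that passed the filter on low counts. Bulk RNA seq was done on bone marrow-derived macrophages (BMDMs), which are macrophages grown in culture from marrow, here of wild-type C57BL/6 mice, given as C57Bl/6J and aged 8 to 10 weeks in the study's methods, and differentiated with M-CSF. The 12 libraries form 4 groups of 3: untreated BMDMs, and BMDMs given 2 ng/ml IL-13, 30 ng/ml DKK1, or IL-13 and DKK1 together (IL-13+DKK1), each for 24 h. No group carries a deletion or a transgene, all were exposed to one dose and one time, and the labels call the libraries biological replicates without saying how many mice they came from, so p-values measure the spread between these samples.

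Naive T cells respond fully to antigen only when the presenting cell adds further signals. CD80 and CD86 bind CD28, which stimulates, and CTLA-4, which inhibits. ICOSL binds ICOS, and CD40 is itself a receptor, bound by CD40L of activated T cells. PD-L1, the product of Cd274, and PD-L2, the product of Pdcd1lg2, both bind PD-1 and restrain T cells. B7-H3 (Cd276), VISTA (Vsir) and galectin-9 (Lgals9) are further checkpoint molecules, and galectin-9 is known as a ligand of TIM-3. In mouse macrophages PD-L2 is a known marker of the response to IL-4 and IL-13 through STAT6, and PD-L1 is widely known for its response to interferons. IL-13 is a cytokine of type 2 immunity, and DKK1 is a secreted antagonist of Wnt signaling that platelets release.

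The total count per library lay between 32224036 and 40917086 (median 35148109.5). All 8 macrophage markers looked for were in the table, with a summed level of 27137 to 27823 CPM (the count as a share of the library's total scaled by the TMM method) in untreated libraries, 18984 to 20030 with IL-13, 44053 to 44732 with DKK1 and 33252 to 34306 with both. None of the 4 mast cell and basophil markers and 1 of the 8 T and NK cell markers were in the table, the latter with at most 0.481 CPM. The 8 neutrophil markers summed to 671 to 747 CPM untreated, 452 to 664 with IL-13, 455 to 481 under DKK1 and 690 to 849 with both, and the 5 stromal markers to between 53.5 and 166 CPM, with the 4 groups overlapping. Platelet markers, of which 3 of 5 were present, summed to 179 to 211 CPM untreated, 351 to 393 with IL-13, 2182 to 2564 with DKK1 and 3862 to 4054 with both. The sum was nearly all Pf4, at 2317 ± 187 CPM under DKK1 and 3834 ± 91.3 with both, where Ppbp was at 54.9 ± 4.58 and 127 ± 5.35. Itga2b was at 1.41 ± 0.702 CPM untreated, 0.461 ± 0.316 with IL-13, 0.881 ± 0.141 under DKK1 and 0.854 ± 0.274 with both (SD, n = 3). Gp9 and Gp1bb were not in the table. The part of these cell types in the results below was not tested, and in RNA of whole cultures fewer cells of a type and less RNA per cell cannot be told apart.

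DKK1 and IL-13 each raised the mRNA of both PD-1 ligands and moved the other molecules in different directions. Calls required more than 1 on the log2 scale in either direction and an adjusted p under 0.05 in the quasi-likelihood test of edgeR, adjusted by Benjamini-Hochberg over all 16306 genes. With DKK1 against untreated, 4 of the 9 were called, against 11.6% of all genes: Cd274, Pdcd1lg2 and Lgals9 rose and Cd276 fell. With IL-13 against untreated, 4 of 9 were called, against 8.13% of all genes: Cd274 and Pdcd1lg2 rose and Cd86 and Icosl fell. With IL-13+DKK1 against untreated, 5 of 9 were called, against 11.8% of all genes: Cd274, Pdcd1lg2 and Lgals9 rose and Icosl and Cd276 fell. These 3 comparisons share the untreated libraries. The adjusted p alone was under 0.05 for 6 of the 9 with DKK1 (45.6% of all genes), all 9 with IL-13 (47% of all genes) and 8 with both (49.5% of all genes). The median log2 fold change of the 9 was 0.53 with DKK1, 0.18 with IL-13 and −0.03 with both, and over all genes tested it was −0.04, −0.02 and −0.01. The ranges of the 3 libraries were apart from those of untreated cells for all members but Cd40 with DKK1 (54.1% of all genes were apart), for all 9 with IL-13 (54.2%) and for all but Cd40 with both (57.6%).

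**Figure D1:**
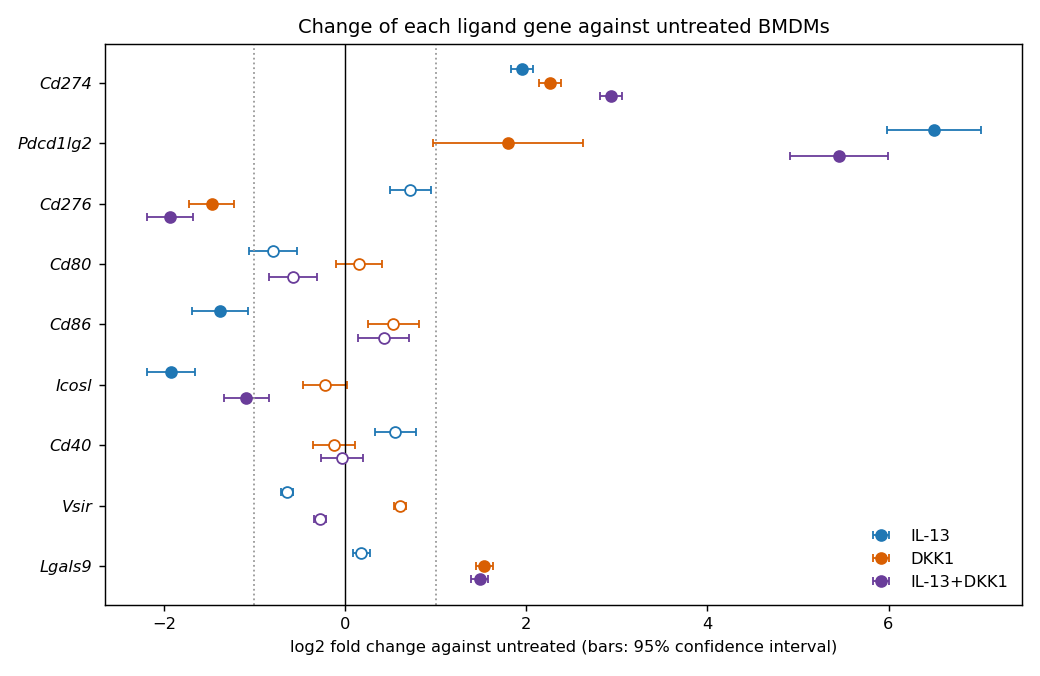
Log2 fold change of each ligand gene (vertical axis) against untreated BMDMs with IL-13, DKK1 or IL-13+DKK1 (horizontal axis), with bars for the 95% confidence interval, filled points for called genes and dotted lines at −1 and 1. Cd274 and Pdcd1lg2 lie to the right in all 3 treated groups, up to 6.50 for Pdcd1lg2 with IL-13, and Cd276 lies to the right with IL-13 (0.72) and to the left with DKK1 (−1.47).

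Cd274 and Pdcd1lg2 are neighbours on chromosome 19 of the mouse genome GRCm39. Cd274 spans chr19:29344529-29365495 and Pdcd1lg2 spans chr19:29388319-29448882, both on the plus strand, with 22823 bases between them. Their upstream sequences are shown because both genes rose with each treatment, with IL-13 to very different extents. Each is the 300 bases before the start of the canonical transcript in GENCODE vM39, on the plus strand. Whether exons of other genes reach into these windows was not tested. Among the motifs searched on both strands in this window of all 9 genes were TTCNNNNGAA, the spacing known for STAT6, GAAANNGAAA, the repeat known for interferon regulatory factors, TGANTCA, known for AP-1, and the kappaB motif of NF-kappaB, which starts with GGG and ends with CC. The capitals mark the matches.
Cd274, chr19:29344229-29344528: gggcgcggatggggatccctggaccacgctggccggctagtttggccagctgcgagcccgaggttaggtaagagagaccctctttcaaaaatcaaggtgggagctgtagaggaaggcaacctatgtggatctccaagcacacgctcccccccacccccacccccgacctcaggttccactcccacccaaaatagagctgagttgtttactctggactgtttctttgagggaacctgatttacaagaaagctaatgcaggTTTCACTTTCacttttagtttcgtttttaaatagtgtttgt
Pdcd1lg2, chr19:29388019-29388318: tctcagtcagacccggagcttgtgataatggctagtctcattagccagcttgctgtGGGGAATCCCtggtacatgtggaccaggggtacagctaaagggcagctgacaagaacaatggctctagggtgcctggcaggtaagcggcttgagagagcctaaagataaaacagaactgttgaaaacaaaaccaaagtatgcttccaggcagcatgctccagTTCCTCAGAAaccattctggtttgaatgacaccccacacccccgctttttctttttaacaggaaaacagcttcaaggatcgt

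The Pdcd1lg2 window held TTCNNNNGAA, 82 to 73 bases before the start, and a kappaB match 244 to 235 bases before it. TTCNNNNGAA was found in 1 of the 9 members and in 7.4% of the 21769 windows of protein-coding genes. The Cd274 window held GAAANNGAAA on the minus strand, 41 to 32 bases before the start, a motif found in 1 of 9 members and 4.07% of all windows. Among the others, TGANTCA lay before Cd80 (42 to 36 bases, 7.38% of all windows), and kappaB matches lay before Cd40 (71 to 62 bases) and Icosl (45 to 36 bases), with 8.83% of all windows. The Cd80 window, chr16:38278995-38279294, precedes the canonical transcript but lies inside the annotated span of the gene. A match of letters is a description and shows no binding.

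Cd274 rose with each treatment, and most with both. Its level was 15.5, 16.2 and 14.98 CPM in the untreated libraries, 61.9, 59.2 and 59.7 with IL-13, 81.3, 68.9 and 73.6 with DKK1, and 118, 122 and 116 with IL-13+DKK1. The 4 groups did not overlap, and each treated library held more Cd274 than any untreated one. The log2 fold change against untreated was 1.95 ± 0.06 (SE, edgeR adjusted p = 2.11e-16) with IL-13, 2.26 ± 0.06 (edgeR adjusted p = 4.70e-18) with DKK1 and 2.93 ± 0.06 (edgeR adjusted p = 6.76e-20) with both. DKK1 added to IL-13 gave a further log2 fold change of 0.98 ± 0.05 (edgeR adjusted p = 6.98e-13), just inside the limit of 1, and without IL-13 replicate 1 the value was 1.00 and passed it. IL-13 added to DKK1 gave 0.67 ± 0.05 (edgeR adjusted p = 7.08e-10). The effect of DKK1 was smaller with IL-13 present than without (difference −1.28 ± 0.08 on the log2 scale, edgeR adjusted p = 6.82e-11), so that the level with both was 0.411 times that of multiplied single effects.

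Gm36043, a long noncoding RNA gene on the opposite strand, shares 581 exon bases with Cd274 in the annotation. It was at 1.97 ± 0.500 CPM untreated, 7.81 ± 0.530 with IL-13, 8.73 ± 2.11 under DKK1 and 15.4 ± 0.332 with both (SD, n = 3), with the group means in the same order as those of Cd274. Plgrkt, also on the opposite strand with 219 shared exon bases, lay between 64.0 ± 0.848 and 76.97 ± 3.55 CPM. The libraries were stranded, but no source used here gives the strand setting of the counting, and reads of Cd274 and of these genes may not have been told apart.

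Pdcd1lg2 was close to the detection limit without IL-13 and changed more than any other member with it. Its raw counts were 2, 6 and 6 in the untreated libraries, 476, 383 and 418 with IL-13, 14, 15 and 15 with DKK1, and 172, 248 and 236 with IL-13+DKK1. In CPM the group means were 0.131 ± 0.068, 12.04 ± 1.92, 0.459 ± 0.034 and 5.81 ± 0.631 (SD, n = 3). The 4 groups did not overlap, and the order was untreated, DKK1, IL-13+DKK1, IL-13. The log2 fold change with IL-13 was 6.50 ± 0.25 (SE, edgeR adjusted p = 6.17e-15), and the ratio of summed, scaled counts was 92.7 (95% counting interval 55.1 to 170.1). With DKK1 the log2 fold change was 1.80 ± 0.40 (edgeR adjusted p = 0.000735), a ratio of 3.54 (1.91 to 7.00) that rests on 44 counts against 14. With both the log2 fold change was 5.45 ± 0.26 (edgeR adjusted p = 9.46e-14), a ratio of 45.2 (26.8 to 83.2). Counting intervals cover counting error only, and of all counts between 1 and 20, 76.0% were even numbers, against 51.6% above 1000, so low counts may not be independent molecules.

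The effect of DKK1 on Pdcd1lg2 turned with IL-13 present. DKK1 raised it in cells without IL-13, and in cells given IL-13 the libraries with DKK1 lay below those without, with a log2 fold change of −1.05 ± 0.15 (edgeR adjusted p = 3.71e-06). That fall passed the limit of 1 narrowly: without IL-13 replicate 1 it was −0.91 and without IL-13+DKK1 replicate 1 it was −0.96, both under an adjusted p of 0.05. The difference between both effects of DKK1 was −2.84 ± 0.42 (edgeR adjusted p = 1.95e-05). In the presence of DKK1, IL-13 still raised Pdcd1lg2 by 3.66 ± 0.21 on the log2 scale (edgeR adjusted p = 1.01e-11).

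PD-L2 is known from dendritic cells too. Of the 5 markers of that cell type tested, 3 were called higher with IL-13 and 0 lower, against 8.13% of all genes. On adding DKK1 to IL-13, 2 of the 5 were called lower and 1 higher, against 10.8% of all genes. Of 8 dendritic cell markers 6 were in the table, and Cd209a and Siglech were not. Their summed level was 3.59 to 5.40 CPM untreated, 18.3 to 19.4 with IL-13, 3.63 to 4.94 with DKK1 and 5.85 to 7.14 with both. The sum was highest with IL-13, as Pdcd1lg2 was, and most of it there was Batf3, a transcription factor. Batf3 was at 2.36 ± 0.891 CPM untreated, 16.1 ± 0.463 with IL-13 and 2.84 ± 0.069 with both (SD, n = 3). With IL-13 the log2 fold change was 2.76 for Batf3 (edgeR adjusted p = 9.2e-11), 1.53 for Zbtb46 (edgeR adjusted p = 0.0176) and 1.54 for Ccr7 (edgeR adjusted p = 0.00026). Zbtb46 was at most 1.24 ± 0.245 CPM, in the IL-13 group, and at 0.550 ± 0.229 with both. Ccr7 was highest with both, at 2.49 ± 0.431 CPM. Means untreated and with IL-13 were 0.386 and 0.0562 CPM for Flt3, which was too low to be tested, 0.210 and 0.111 for Xcr1 and 0.410 and 0.317 for Clec9a, and neither of the latter passed the test with IL-13. The part of such cells in the Pdcd1lg2 values was not tested.

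The balance between the PD-1 ligands within a library differed with IL-13. Per kilobase of exon, Cd274 stood at 162, 50.98 and 52.1 times Pdcd1lg2 in the untreated libraries, the first of which held 2 counts of Pdcd1lg2, and at 107, 83.2 and 84.0 times with DKK1. It stood at 2.84 ± 0.361 times with IL-13 and 11.5 ± 1.31 times with IL-13+DKK1 (SD, n = 3). The untreated and DKK1 libraries overlapped. The IL-13 libraries, the IL-13+DKK1 libraries and the libraries without IL-13 did not overlap, and PD-L1 mRNA was the more abundant in all 12.

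**Figure D2:**
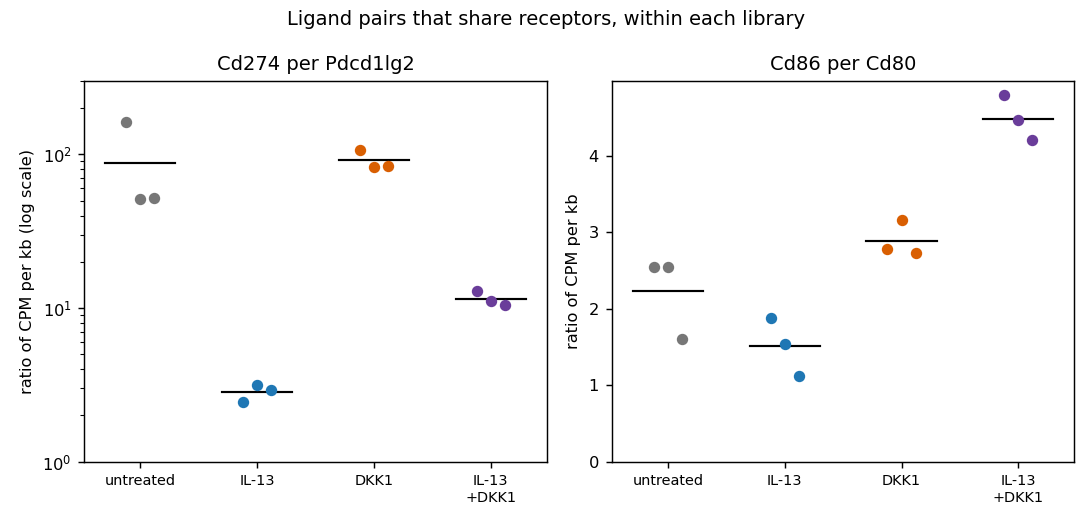
Ratio of CPM per kb of exon in each library (points) with the group mean (line), for Cd274 per Pdcd1lg2 on a log axis (left) and Cd86 per Cd80 on a linear axis (right), in the 4 groups. The left ratio is lowest with IL-13, at 2.44 to 3.15, and the right ratio is highest with IL-13+DKK1, at 4.21 to 4.80.

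Cd80 and Cd86 share their receptors but did not move together. Both lie on chromosome 16, at chr16:38275923-38316697 on the plus strand and chr16:36424044-36486443 on the minus strand. Cd86 was at 21.5, 21.4 and 13.7 CPM in untreated libraries, 7.87, 7.96 and 5.89 with IL-13, 24.6, 30.2 and 27.0 with DKK1, and 21.9, 27.0 and 26.9 with IL-13+DKK1. The IL-13 libraries were the lowest without overlap, and those with DKK1 overlapped with those given both. IL-13 lowered Cd86 with a log2 fold change of −1.38 ± 0.15 (SE, edgeR adjusted p = 1.04e-07), and DKK1 added to IL-13 raised it by 1.81 ± 0.15 (edgeR adjusted p = 9.76e-10), to a level above every untreated library. Against untreated the value was 0.53 ± 0.14 (edgeR adjusted p = 0.00257) with DKK1 and 0.43 ± 0.13 (edgeR adjusted p = 0.0119) with both, neither called.

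The third untreated library was low in Cd86, and these small differences were smaller without it. Without it the log2 fold change of Cd86 was 0.35 (edgeR adjusted p = 0.0182) with DKK1 and 0.24 (edgeR adjusted p = 0.0908) with both. The latter was also past 0.05 without IL-13+DKK1 replicate 2 (0.0567), without IL-13+DKK1 replicate 3 (0.0539) and by DESeq2 (0.0711). IL-13 added to DKK1 gave −0.11 (95% interval −0.38 to 0.17). The effect of DKK1 on Cd86 was larger with IL-13 than without, by 1.27 ± 0.20 (edgeR adjusted p = 4.38e-05).

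Cd80 was called in none of the comparisons with untreated cells. Its level was 9.07, 9.03 and 9.14 CPM untreated, 4.50, 5.55 and 5.62 with IL-13, 9.49, 10.3 and 10.6 with DKK1, and 4.91, 6.49 and 6.85 with IL-13+DKK1. All 6 libraries with IL-13 lay below all 6 without. The log2 fold change was −0.80 ± 0.13 (SE, edgeR adjusted p = 2.32e-05) with IL-13 and −0.57 ± 0.13 (edgeR adjusted p = 0.000644) with both. DKK1 gave 0.15 (95% interval −0.10 to 0.41) in cells without IL-13 and 0.22 (−0.05 to 0.50) in cells with it, and the latter was 0.35 (edgeR adjusted p = 0.0317) without IL-13+DKK1 replicate 1. The difference of both effects was 0.07 (95% interval −0.31 to 0.44), and of the 9 members Cd80 was the only one whose interaction had an adjusted p over 0.05. Cd80 shares 276 exon bases with Timmdc1 on the opposite strand, which lay between 9.34 ± 0.733 and 11.6 ± 0.913 CPM in the 4 groups (SD, n = 3). Per kilobase of exon Cd86 stood at 2.23 ± 0.543 times Cd80 untreated, 1.51 ± 0.376 with IL-13, 2.89 ± 0.231 under DKK1 and 4.49 ± 0.296 with both.

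Icosl and Cd40, both of costimulation, had fold changes of opposite sign with IL-13. Icosl (chr10:77905136-77919747, plus strand) was at 18.9, 18.3 and 17.9 CPM untreated, 4.95, 5.79 and 3.79 with IL-13, 15.8, 16.6 and 14.9 with DKK1, and 8.51, 9.95 and 7.41 with IL-13+DKK1. The 4 groups did not overlap, and IL-13 alone gave the lowest level. IL-13 lowered it with a log2 fold change of −1.92 ± 0.13 (SE, edgeR adjusted p = 4.21e-11). With both the value was −1.09 ± 0.12 (edgeR adjusted p = 9.26e-08), which without IL-13+DKK1 replicate 3 was −0.99 and no longer called. DKK1 alone gave −0.22 (95% interval −0.46 to 0.02), and with IL-13 present DKK1 gave 0.83 ± 0.13 (edgeR adjusted p = 1.71e-05), not called. For DKK1 alone the adjusted p was 0.128, and it was 0.0207 with scaling by library size only and 0.0442 with only both groups in the fit.

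The effect of DKK1 on Icosl differed with and without IL-13 by 1.05 ± 0.18 (edgeR adjusted p = 8.16e-05). This difference stayed under an adjusted p of 0.05 but fell short of 1 on leaving out any of 3 libraries: it was 0.90 without IL-13 replicate 3, 0.99 without DKK1 replicate 3 and 0.93 without IL-13+DKK1 replicate 2.

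Cd40 (chr2:164897544-164914868, plus strand) was at 16.3, 14.1 and 14.1 CPM untreated, 19.7, 23.6 and 22.2 with IL-13, 15.3, 13.5 and 11.98 with DKK1, and 12.3, 16.5 and 14.7 with IL-13+DKK1. The IL-13 libraries were above all others, and the other 3 groups overlapped. IL-13 gave a log2 fold change of 0.56 ± 0.11 (SE, edgeR adjusted p = 0.000179), not called. DKK1 gave −0.13 (95% interval −0.36 to 0.10) and both gave −0.03 (−0.26 to 0.19) against untreated. DKK1 added to IL-13 gave −0.59 ± 0.11 (edgeR adjusted p = 9.07e-05). The interaction was −0.46 ± 0.15 (edgeR adjusted p = 0.0297), and it went past 0.05 on leaving out any of 6 libraries, to at most 0.0927.

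Cd276 was the only member called lower with DKK1 against untreated cells. It lies at chr9:58431412-58463665 on the minus strand and was at 11.9, 12.4 and 11.3 CPM untreated, 17.4, 20.9 and 20.4 with IL-13, 4.50, 4.26 and 4.05 with DKK1, and 3.58, 2.54 and 3.24 with IL-13+DKK1. The 4 groups did not overlap, with IL-13 highest and both lowest. DKK1 gave a log2 fold change of −1.47 ± 0.12 (SE, edgeR adjusted p = 9.83e-10) without IL-13 and −2.65 ± 0.12 (edgeR adjusted p = 5.99e-14) with it, a difference of −1.18 ± 0.17 (edgeR adjusted p = 1.74e-05). IL-13 gave 0.72 ± 0.11 (edgeR adjusted p = 8.08e-06) in cells without DKK1 and −0.46 ± 0.14 (edgeR adjusted p = 0.00946) in cells with it, the latter at an adjusted p of 0.0754 without IL-13+DKK1 replicate 2. With both against untreated Cd276 fell by 1.93 ± 0.12 on the log2 scale (edgeR adjusted p = 1.43e-11). In the annotation it shares 506 exon bases with Gm10657 of the opposite strand, which was not analysed here.

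Vsir and Lgals9 were the most abundant members. Vsir (chr10:60182630-60208463, plus strand, inside the gene Cdh23 of the opposite strand, with no shared exon bases) was at 650.1, 651 and 652 CPM untreated, 434, 405 and 411 with IL-13, 990.7, 997 and 990.5 with DKK1, and 524, 543 and 542 with IL-13+DKK1. The 4 groups did not overlap. The log2 fold change was −0.64 ± 0.03 (SE, edgeR adjusted p = 5.35e-13) with IL-13, 0.61 ± 0.03 (edgeR adjusted p = 5.94e-13) with DKK1 and −0.28 ± 0.03 (edgeR adjusted p = 2.05e-07) with both, so Vsir lay past the spread between replicates in each but was called in none. Between the single treatments it was called, higher with DKK1 than with IL-13 by 1.25 ± 0.03 (edgeR adjusted p = 2.53e-18). The summed level of the macrophage markers given above, most of it Lyz2, was also highest with DKK1 and lowest with IL-13, but it was higher with both than untreated, where Vsir was lower. The markers did not move as one: Cd68 was at 979 ± 20.3 CPM untreated, 1221 ± 20.6 with IL-13, 727 ± 11.9 under DKK1 and 844 ± 27.4 with both (SD, n = 3), Mertk was highest untreated and Adgre1 highest with both. Their part in the Vsir values was not tested.

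Lgals9 (chr11:78853800-78875798, minus strand) separated the libraries by DKK1. It was at 96.8, 91.2 and 88.5 CPM untreated, 112, 101 and 101 with IL-13, 281, 256 and 266 with DKK1, and 259, 259 and 257 with IL-13+DKK1. All 6 libraries with DKK1 lay above all 6 without, and the DKK1 and IL-13+DKK1 groups overlapped. DKK1 raised it by 1.54 ± 0.05 (SE, edgeR adjusted p = 3.89e-17) without IL-13 and 1.30 ± 0.05 (edgeR adjusted p = 6.67e-16) with it. IL-13 gave 0.18 ± 0.05 (edgeR adjusted p = 0.00270) in cells without DKK1 and −0.05 (95% interval −0.14 to 0.04) in cells with it.

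**Figure D3:**
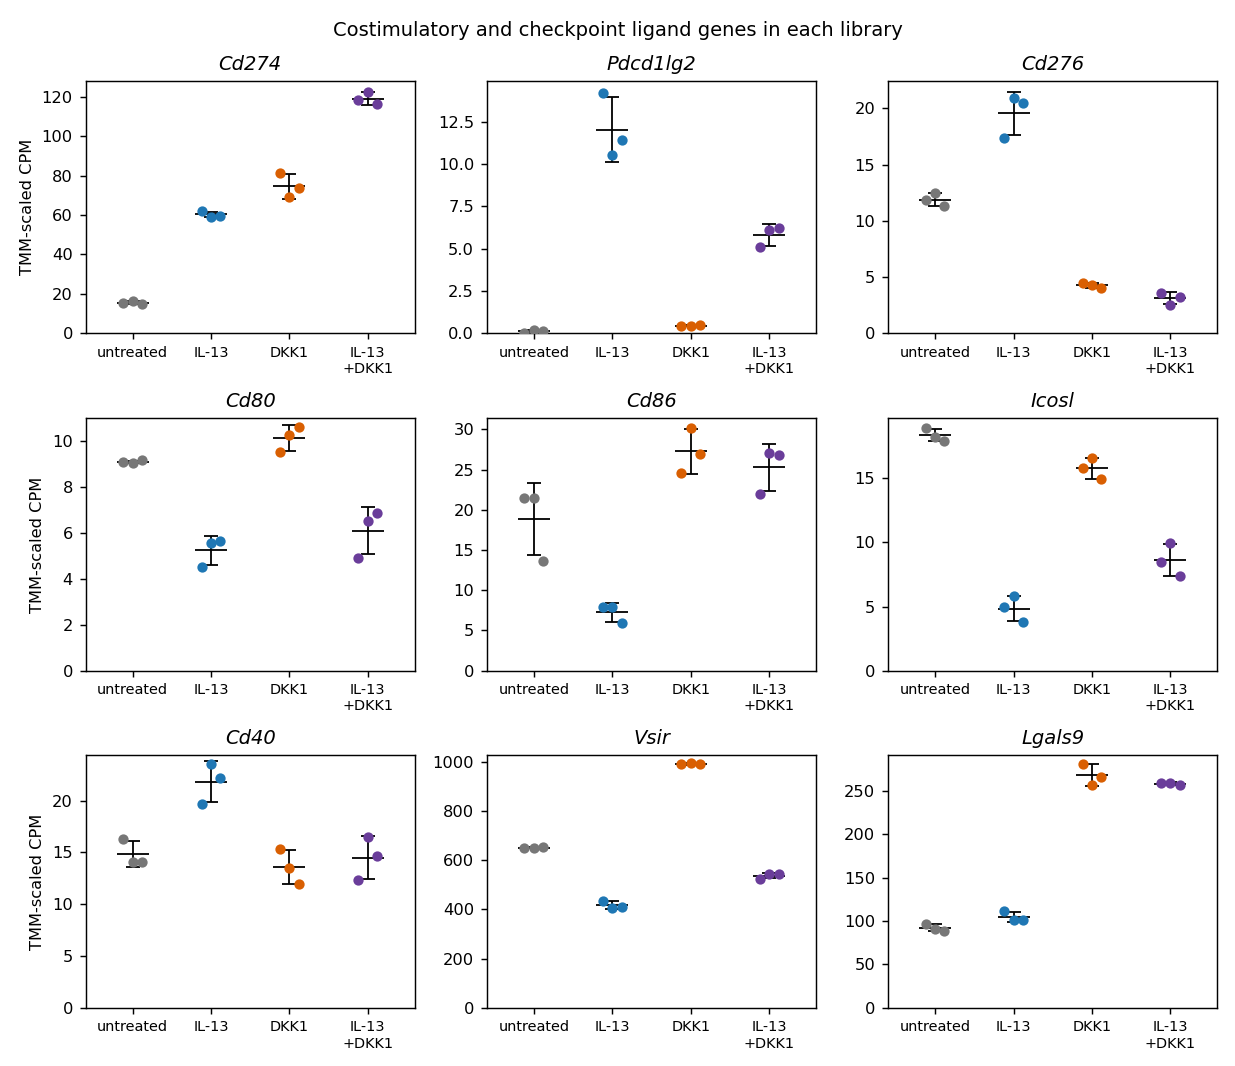
TMM-scaled CPM of each of the 9 genes in each library (points), with the group mean and SD (black), on linear axes that start at 0. Cd274 rises from 15.6 CPM untreated to 119 with IL-13+DKK1, Pdcd1lg2 is near 0 without IL-13, Cd276 is low in all 6 libraries with DKK1, and Lgals9 is high in them.

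DKK1 against IL-13 directly, the comparison of both single treatments, called 6 of the 9 members, against 15.4% of all genes: Cd86 (1.91), Icosl (1.70), Lgals9 (1.36) and Vsir (1.25) were higher with DKK1 on the log2 scale, and Pdcd1lg2 (−4.70) and Cd276 (−2.19) were lower. Cd80, at 0.95, lay just inside the limit and was 1.00 and called without IL-13 replicate 3. Adding DKK1 to IL-13 called 4 members, against 10.8% of all genes: Cd86 and Lgals9 rose and Pdcd1lg2 and Cd276 fell. Adding IL-13 to DKK1 called 1 member, Pdcd1lg2, against 5.51% of all genes. The adjusted p alone was under 0.05 for 9, 8 and 6 members in these comparisons, and for 54.6%, 44.4% and 39.3% of all genes. The ranges of the libraries were apart for all 9 members between the single treatments (59.3% of all genes), for all but Cd80 on adding DKK1 to IL-13 (52.5%) and for all but Cd86, Cd40 and Lgals9 on adding IL-13 to DKK1 (49.2%). Their median log2 fold changes were 0.95, 0.36 and −0.11, against −0.01, −0.003 and 0.01 over all genes tested.

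On the log2 scale, 5 of the 9 members responded to both agents together by more than 1 away from the sum of the single responses, against 4.62% of all genes. Cd274, Pdcd1lg2 and Cd276 lay below the sum, and Cd86 and Icosl above it. The Pdcd1lg2 value with DKK1 alone rests on 44 counts against 14 untreated. For Pdcd1lg2 the single log2 fold changes added to 8.30 and the observed value was 5.45, and for Cd274 they added to 4.21 and it was 2.93. For Cd276 they added to −0.75 and it was −1.93. For Cd86 they added to −0.85 and the observed value was 0.43, of the other sign, and for Icosl they added to −2.14 and it was −1.09. Vsir (difference −0.25), Lgals9 (−0.23) and Cd40 (−0.46) had smaller differences with an adjusted p under 0.05, which makes 8 of 9 members against 26.3% of all genes.

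**Figure D4:**
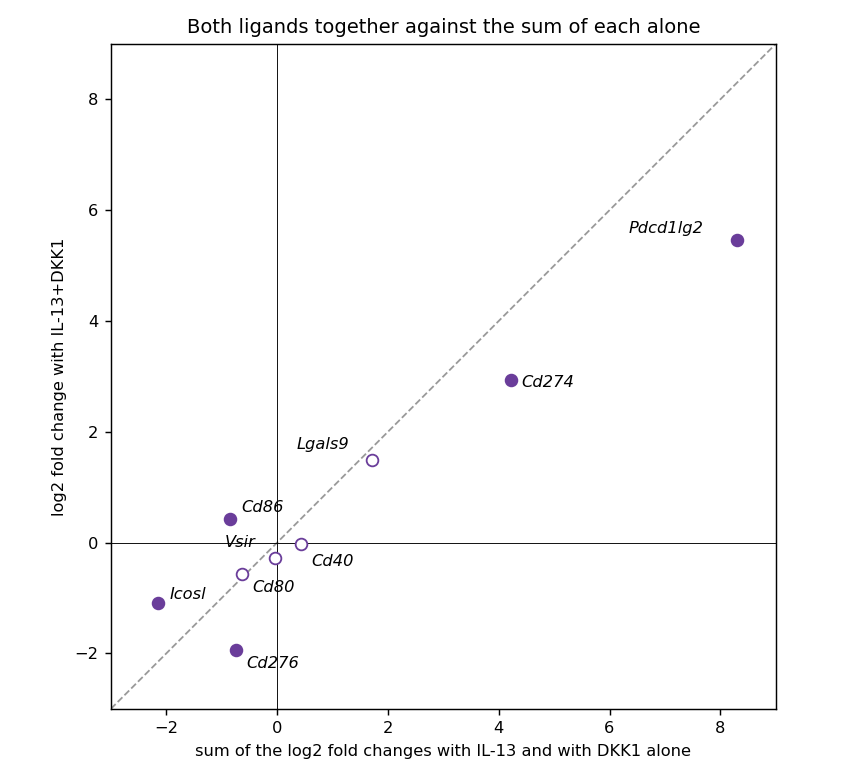
Log2 fold change with IL-13+DKK1 against untreated (vertical axis) by the sum of the log2 fold changes with each agent alone (horizontal axis) for the 9 genes; the dashed line is equality and filled points are genes whose difference was called. Pdcd1lg2 and Cd274 lie below the line at sums of 8.30 and 4.21, and Cd86 lies above it at a sum of −0.85.

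Per kilobase of exon, which scales the levels of different genes by length, checkpoint genes took the first places in each group. The length covers all exons annotated for a gene, and which transcripts the cells held was not tested. In untreated libraries the order of the group means in CPM per kb was Vsir (129.8), Lgals9 (40.6), Cd86 (4.90), Cd40 (4.36), Icosl (3.98), Cd274 (3.82), Cd276 (2.31), Cd80 (2.20) and Pdcd1lg2 (0.0573). The range of Cd86 (3.55 to 5.59) overlapped those of Cd40, Icosl and Cd274. The ranges of Icosl and Cd274 also overlapped, as did those of Cd276 and Cd80. Cd274 stood in the sixth place there and in the third in every treated group, at 14.8 CPM per kb with IL-13, 18.3 under DKK1 and 29.1 with both. With IL-13, Pdcd1lg2 (5.27) stood above Cd276 (3.81), Cd86 (1.88), Cd80 (1.26) and Icosl (1.05), and its range overlapped that of Cd40 (6.40). With DKK1, Vsir (198) and Lgals9 (118) were followed by Cd274 and Cd86 (7.08), and Cd276 (0.833) and Pdcd1lg2 (0.201) were last. With IL-13+DKK1, Lgals9 (114) stood above Vsir (107), without overlap between libraries, and Cd276 (0.608) was last. In CPM, Vsir was the higher there, at 536 ± 10.5 against 258 ± 1.45 for Lgals9 (SD, n = 3). The order of these genes per kilobase therefore rests on the annotated exon lengths, 5.01 kb for Vsir and 2.27 kb for Lgals9.

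Genes most like each called member were found by the distance between patterns, the root mean square difference of the 4 group means of log2 CPM after each gene was centred, among 8940 genes with a mean of at least 10 CPM. For Cd274 these were C3 (complement), Fgl2 and Mmp9 (a matrix protease), at distances of 0.23, 0.29 and 0.31, against a median of 1.09 over all genes considered. C3 was at 101 CPM untreated, 473 with IL-13, 593 under DKK1 and 641 with both. For Pdcd1lg2 the nearest were Gm8113, Il1rl2 (a receptor of IL-36) and Slc7a2 (a transporter of cationic amino acids), but at 0.74, 0.98 and 0.99, against a median of 2.49. In cells given IL-13, Gm8113 was lower with DKK1, as Pdcd1lg2 was, at 12.3 CPM with both and 29.5 with IL-13. In cells without IL-13 it was at 0.621 CPM untreated and 0.479 with DKK1, where Pdcd1lg2 rose. Slc7a2 was at 328 CPM with both and 336 with IL-13.

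Cd86 was nearest to Ssh2, a phosphatase of cofilin (distance 0.04, from 147 CPM untreated to 57.6 with IL-13), followed by Dusp6 (0.16), a phosphatase of ERK, and Rgs11 (0.17). Icosl was nearest to the cytokine gene Il16 (0.09), Abhd15 (0.21) and the adhesion molecule gene F11r (0.23). The closest to Cd276 were Vwf, the gene of von Willebrand factor (0.09), Il7r (0.16) and the cholesterol exporter gene Abcg1 (0.19). Vwf was at 12.4 CPM untreated, 22.2 with IL-13, 4.20 under DKK1 and 2.94 with both. Vsir was nearest to Cyp4f16 (0.03), Fxyd5 (0.04) and Zfp467 (0.05), and Lgals9 to the cytokine receptor gene Il21r (0.03), the RNA sensor gene Ifih1 (0.04) and N4bp1 (0.05). Among the members themselves the closest pair was Cd80 and Vsir (0.17), and Cd274 and Pdcd1lg2 were 1.90 apart. These are distances between 4 group means of the same 12 libraries and are descriptions only.

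Among other surface ligands of T cell receptors, 16 of the 21 genes listed were tested and 6 were called with DKK1, all higher, against 11.6% of all genes. Tnfsf14, the gene of LIGHT, a ligand of HVEM, rose from 1.25 ± 0.056 CPM to 56.3 ± 6.42 (SD, n = 3), a log2 fold change of 5.48 ± 0.13 (SE, edgeR adjusted p = 6.12e-19), and stood at 1.03 ± 0.232 with IL-13 and 13.6 ± 0.994 with both. Tnfsf9, the gene of the CD137 ligand, rose by 2.28 ± 0.24 and Nectin2, a ligand of TIGIT and CD226, by 2.10 ± 0.06 on the log2 scale. Tnfsf9 was low, going from 0.896 ± 0.188 to 4.37 ± 0.391 CPM, and Nectin2 went from 21.1 ± 0.522 to 90.1 ± 3.69. Tnfrsf14, the gene of HVEM itself, went from 20.1 ± 1.86 to 66.0 ± 1.93 CPM with DKK1, and IL-13 added to DKK1 lowered it by 1.21 ± 0.07 on the log2 scale. Tnfsf15 (1.08 ± 0.33) and Btnl2 (1.30 ± 0.47), a butyrophilin-like gene, were the others called with DKK1, and Tnfsf15 was named after its value was seen. Both were at low levels. Tnfsf15 went from 0.698 ± 0.105 to 1.48 ± 0.297 CPM and Btnl2 from 0.247 ± 0.072 to 0.615 ± 0.062.

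With IL-13 1 of the 16 was called, near the share of all genes (8.13%). It was Tnfsf4, the gene of the OX40 ligand, which went from 0.0921 ± 0.040 to 0.615 ± 0.122 CPM (log2 fold change 2.69 ± 0.61, edgeR adjusted p = 0.000974), on few counts. With both, 4 were called, all higher, against 11.8% of all genes, led by Tnfsf14 (3.44), Btnl2 (2.15) and Nectin2 (1.62). Btnl2 was at only 1.12 ± 0.297 CPM with both, and Nectin2 at 64.9 ± 2.18. The median log2 fold change of the 16 genes was 0.67 with DKK1, −0.20 with IL-13 and 0.27 with both. In the interaction Tnfsf4 (−3.39) and Tnfsf14 (−1.77) were called lower and Cd24a, a surface glycoprotein gene, higher (1.21), against 4.62% of all genes.

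Of the 9 receptors and partners of the members 6 were tested. Cd28, the receptor of CD80 and CD86, was at 37.0 ± 2.93 CPM untreated, 7.64 ± 1.82 with IL-13, 9.06 ± 1.37 under DKK1 and 6.35 ± 0.700 with both (SD, n = 3). Its log2 fold change was −2.28 ± 0.13 with IL-13, −2.03 ± 0.13 under DKK1 and −2.55 ± 0.13 with both (SE), although the T cell markers Cd3d, Cd3e, Cd3g and Trac were not in the table. Havcr2, the gene of TIM-3, went from 40.0 ± 0.279 to 14.5 ± 0.535 CPM with DKK1 (log2 fold change −1.46 ± 0.07, SE, edgeR adjusted p = 8.06e-14), while Lgals9 rose. Of the 6 genes 2 were called with DKK1, 1 with IL-13 and 2 with both, all lower, against 11.6%, 8.13% and 11.8% of all genes. Selplg, whose product PSGL-1 is a partner of VISTA, was called in the interaction (−1.02 ± 0.06) and in no comparison of 2 groups.

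In CD40 signaling, all 12 genes were tested and 5 were called with DKK1, all higher, against 11.6% of all genes. They were Traf1 (1.73 ± 0.11), an adaptor, Birc3 (1.32 ± 0.04), a ubiquitin ligase, Nfkb2 (1.25 ± 0.04) and Relb (1.05 ± 0.05), subunits of noncanonical NF-kappaB, and Tank (1.02 ± 0.06), on the log2 scale with the SE. With IL-13 the count was 1 of 12, near the 8.13% of all genes, and the gene was Traf5, an adaptor, at 1.28 ± 0.07. With both, Traf1 (1.12) and Tank (1.05) were called, against 11.8% of all genes. The list's median log2 fold change was 0.40 with DKK1, −0.06 with IL-13 and 0.57 with both, while Cd40 itself was called in none of these.

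Of 9 regulators of PD-L1 protein, all tested, 1 was called with DKK1, near the 11.6% of all genes. It was Hip1r, whose product directs PD-L1 to lysosomes, with a log2 fold change of −1.72 ± 0.30 from 2.12 ± 0.400 CPM.

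Of 10 inhibitory receptors of macrophages, all tested, 4 were called higher and 2 lower with DKK1, against 11.6% of all genes called in either direction. With IL-13 all 10 passed the adjusted p (47% of all genes) but none by more than 1 on the log2 scale. Pilra rose from 29.2 ± 2.16 to 200.5 ± 4.95 CPM with DKK1 (SD, n = 3), and Siglece (1.96 ± 0.11), Cd300lf (1.74 ± 0.08) and Pirb (1.39 ± 0.04) followed on the log2 scale. Lair1 (−1.25 ± 0.04), a collagen receptor gene, and Clec12a (−1.12 ± 0.03) were called lower, and both were named after their values were seen. With both, 4 were called higher and 2 lower, against 11.8% of all genes. The list's median log2 fold change was 0.34 with DKK1, −0.25 with IL-13 and 0.03 with both.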

How the data were processed

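Libraries of total RNA, depleted of ribosomal RNA, were made with a stranded kit. Reads were checked with FastQC 0.11.9, mapped with STAR 2.7.6a to the genome GRCm39 and summed by featureCounts, and the authors deposited these raw counts. The study tested them with DESeq2 1.30.0. The featureCounts version, its annotation and its handling of strand were not given in the sources used here. No gene with a highest count under 11 was in the table. Genes were filtered with filterByExpr (minimum count 10, minimum total 15), scaled by TMM and fitted with 1 mean per group over all 12 libraries, with the quasi-likelihood test of edgeR and p-values adjusted by Benjamini-Hochberg (edgeR 4.0.16, limma 3.58.1, R 4.3.3). The 6 pairs of groups and the interaction were tested. SEs are the absolute log2 fold change over the root of the F statistic. Alternatives were other scalings, no filter, DESeq2 1.42.0, only the compared groups, TREAT, the replicate number as a block and each library left out. The code was tested on simulated data. Positions, exon lengths and upstream bases came from GENCODE vM39 on GRCm39, which held 99.6% of the gene IDs (Python 3.11.15).

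Named were every member, up to 3 called genes with the largest change per other list and comparison, and the 3 nearest patterns (prior count 2) of each called member. The members and lists were chosen with earlier results of these data known. Some genes, 2 gene lists and 1 motif are not reported here. Between replicates the chi-square per gene was 4.31 to 9.93, so no library was a copy of another. Counting error alone gives 1 for independent counts, and low counts here may not be independent.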

Additional observations from a re-analysis of the deposited data

Results flagged for a closer look

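For 8 of the 9 members DKK1 acted differently in cells given IL-13 than in cells without it, at an adjusted p under 0.05 for the interaction (quasi-likelihood test of edgeR, adjusted by Benjamini-Hochberg over all genes), against 26.3% of all genes. The differences were positive for Cd86 (1.27) and Icosl (1.05) on the log2 scale. They were negative for Pdcd1lg2 (−2.84), Cd274 (−1.28), Cd276 (−1.18), Cd40 (−0.46), Vsir (−0.25) and Lgals9 (−0.23). The value of Cd40 went past 0.05 on leaving out any of 6 libraries and under 2 other scalings, and that of Lgals9 with scaling by library size only (0.0613). The groups of 3 libraries are too small for a search for single outlying libraries.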

How the results depend on the processing

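No member changed direction in a called value, and RLE factors, upper-quartile factors, library size only, no filter, DESeq2 and, for pairs of groups, only the compared groups in the fit ended or added no member's call. Library size only moved the median log2 fold change of all genes from −0.04 to −0.16 with DKK1 against untreated. Past or under an adjusted p of 0.05 alone, it took the interaction of Lgals9 to 0.0613 and of Cd40 to 0.0656, and upper-quartile factors took the latter to 0.0557; the cause was not tested.

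TREAT, which tests against a log2 fold change of 1 and is stricter by construction, called fewer genes, higher and lower: 526 and 484 (845 and 1054 otherwise) for DKK1 against untreated, 365 and 117 (757 and 569) for IL-13 against untreated, 509 and 465 (855 and 1075) for both against untreated, 381 and 507 (760 and 994) for both against IL-13, 180 and 97 (525 and 373) for both against DKK1, 666 and 915 (1102 and 1403) for DKK1 against IL-13, and 67 and 120 (346 and 408) for the interaction. It ended the calls of Pdcd1lg2 with DKK1 (adjusted p = 0.115), Cd86 with IL-13 (0.0705), Icosl with both (0.842), Pdcd1lg2 with both against IL-13, and Cd86, Icosl and Cd276 in the interaction. Members called lower then numbered 1 with IL-13, 1 with both and 1 with both against IL-13, and members called higher in the interaction 0.

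Leaving out 1 library gave 1 to 2 members called lower with both against untreated and 1 to 2 called lower with both against IL-13. It gave 1 to 2 called higher in the interaction, 2 to 3 called higher with both against IL-13, and 4 to 5 called higher with DKK1 against IL-13. The libraries are named with the results. Deviations of same-numbered libraries correlated at −0.064 to 0.082 over 18 pairs of libraries, and in 11 of these the best correlation was with the own number. Among the members, Icosl was lowest in replicate 3 of each group, and Lgals9 was highest in replicate 1 of each. Whether same-numbered libraries shared a preparation is therefore not known. With the replicate block DKK1 against untreated called 841 genes higher and 1047 lower, and no member's call changed. Among the 9 members, counts were lowest for Pdcd1lg2 without IL-13, at 2 to 15 per library.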
